A study of Drosophila melanogaster with 8 samples.

Results

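The 8 genes described here encode the subunits of Polycomb repressive complex PRC2 in Drosophila melanogaster: esc, escl, E(z), Su(z)12, Caf1-55, Pcl, Jarid2 and jing. They were chosen by symbol from a table of 17321 genes in which E(z) and Su(z)12 are written with square brackets, and each symbol matched 1 row. All 8 passed the filter on low values, a mean over libraries of 0.5 RPKM or more, that left 10547 genes for testing. RPKM is a read count scaled by gene length and by the size of the library. It allows levels of different genes to be compared roughly, within the limit of a trend with gene length described further on.

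RNA-seq of pooled whole embryos of stages 14 and 15 compared Oregon R (OrgR), a wild-type laboratory strain, with maternal and zygotic esc mutants. In such mutants, mother and embryo are both mutant for the gene. The labels do not name the esc allele, its lesion or the genetic background of the mutant, and each pool held at least 200 embryos. Each genotype had 4 libraries, numbered 1-1, 1-2, 2-1 and 2-2. The libraries that share a first number, called a set here, were averaged on the log2 scale, so n is 2 sets per genotype. Whether the sets came from separate embryo collections is not stated, and p-values here reflect only the variation from set to set, possibly technical.

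PRC2 methylates histone H3 at the residue known as K27, a mark bound by Polycomb that keeps developmental genes such as the Hox genes silent outside their proper domains. E(z) is the methyltransferase. It is active only when joined to Su(z)12 and to a WD40 protein that binds the methylated histone tail, which is ESC in the embryo or its close paralog ESCL, and the complex also holds the histone-binding protein Caf1-55. Accessory subunits define separate forms of the complex: Pcl in one form, and Jarid2 together with Jing, the relative of mammalian AEBP2, in another. The maternal supply of ESC is known to carry much of the early silencing, which is why maternal and zygotic loss is studied together.

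The RNA of esc fell about 3.07-fold in the mutants, further than that of any other subunit gene. In every other subunit gene the mean level was also lower in esc embryos, at 65.6% to 87.4% of the OrgR level, and 5 of these 7 passed the test: escl, E(z), Caf1-55, Pcl and jing. Su(z)12 and Jarid2 did not pass. In all, 6 of 8 genes fell and none rose, where 52.5% of all tested genes changed, 31.6% falling and 20.9% rising. The median log2 change of the 8 was -0.46, beside -0.18 for all tested genes. With libraries rescaled by the median of ratios, which brought the median of all genes to -0.02, 2 of 8 fell, esc and Caf1-55, beside 13.4% of all genes that fell and 23.9% that rose (37.3% in either direction), and the median of the 8 was -0.28. Centring each library on the median gene left the same 2, beside 14.5% of all genes (38.8% in either direction). Fewer cells that express a gene and less RNA per cell cannot be told apart in whole embryos.

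**Figure D1:**
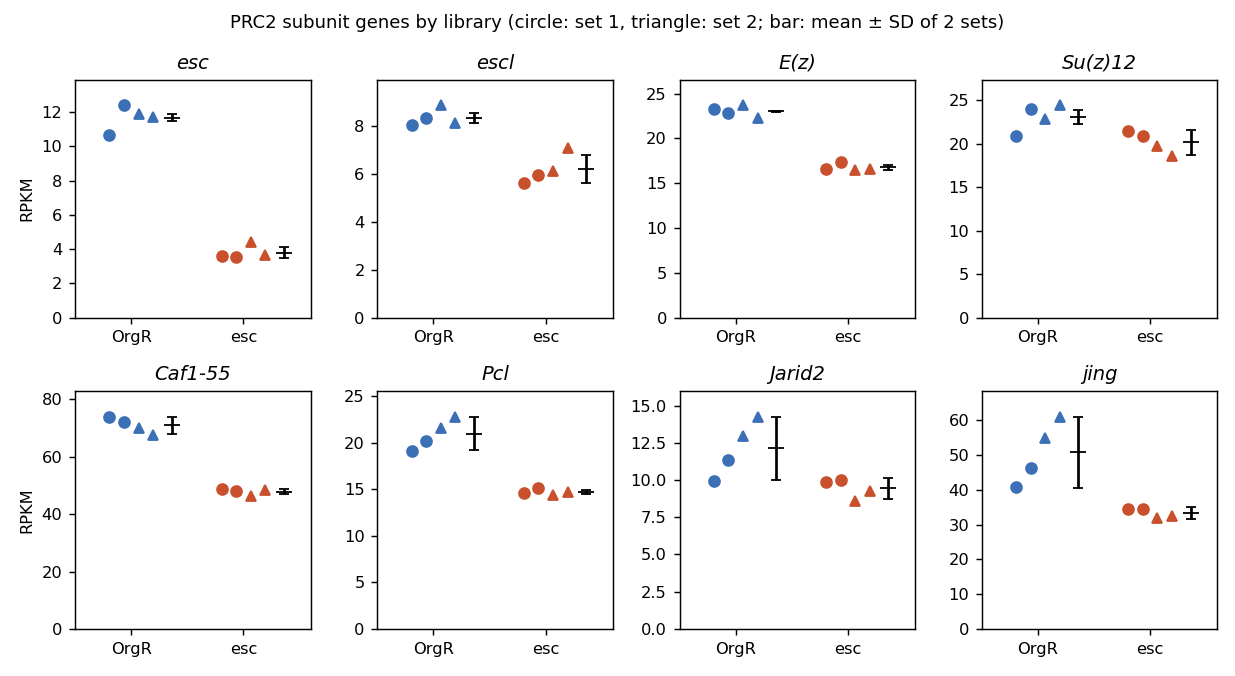
RPKM of each subunit gene (vertical axes, from 0) in the 4 OrgR and the 4 esc libraries, with circles for set 1, triangles for set 2, and a bar for the mean ± SD of the 2 sets. The genotypes do not overlap in 6 of 8 genes, beside 71.5% of all tested genes (45.3% with esc lower), and they overlap in Su(z)12 and Jarid2.

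The subunit that takes the place of ESC, and ESC itself, come first. The esc gene was at 10.7, 12.4, 11.9 and 11.7 RPKM in OrgR libraries 1-1, 1-2, 2-1 and 2-2, and at 3.59, 3.56, 4.40 and 3.66 RPKM in the esc libraries of these numbers. The groups were far apart, and the mutants kept 32.5% of the OrgR level (log2 change on log2(RPKM + 1) of -1.40 ± 0.11, SE; limma adjusted p = 0.00267). Only 0.597% of tested genes fell at least as far. Because the lesion is not known here, the remaining RNA does not show whether any functional ESC was made. The gene lies on 2L from 11827204 to 11829405 on the minus strand (BDGP6, the dm6 assembly), inside the span of Pde1c on the same strand, with which it shares no exonic base. Pde1c also fell (log2 change -1.07, adjusted p = 0.0112).

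The paralog escl did not rise. It was at 8.07, 8.33, 8.88 and 8.14 RPKM in OrgR and at 5.61, 5.96, 6.12 and 7.11 RPKM in esc. All 4 esc libraries lay below all 4 OrgR libraries, as for 45.3% of tested genes (71.5% had no overlap in either direction), and esc library 2-2 came nearest. Its mean of 8.36 ± 0.22 RPKM in OrgR compared with 6.20 ± 0.59 RPKM in the mutants (SD over 2 sets), and the log2 change was -0.38 ± 0.12 (limma adjusted p = 0.0479, 95% interval -0.69 to -0.08). This call was the least secure of the 6. It ended in 15 of 26 other settings, among them without OrgR library 1-2 (adjusted p = 0.0612), OrgR 2-1 (0.0649), esc 1-1 (0.0504), esc 1-2 (0.0505) or esc 2-1 (0.0975), and under median-of-ratios scaling (log2 change -0.22, interval -0.53 to 0.10, adjusted p = 0.206). The gene lies on 2L from 11990927 to 11992848 on the plus strand, 161521 bases from esc, and shares 2.93% of its exonic bases with dgt2 on the same strand, which also fell (log2 change -0.55, adjusted p = 0.0326).

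The balance of the 2 paralogs turned over. In OrgR libraries esc stood at 1.32 to 1.49 times escl, and in esc libraries at 0.515 to 0.719 times escl. Put as a share, esc made up 57.0%, 59.8%, 57.3% and 59.0% of the summed RPKM of the pair in OrgR, and 39.0%, 37.4%, 41.8% and 34.0% in esc. The summed level of the pair was 18.8 to 20.8 RPKM in OrgR and 9.20 to 10.8 RPKM in esc, so the mutants had less of both together. The difference between the changes of escl and esc was 1.02 ± 0.14 on the log2 scale (limma on ratios within a library, adjusted p = 0.000315). With 0.01 added to RPKM in place of 1 it was 1.19. Of all tested genes, 97.8% were called higher relative to esc, so this is not particular to escl.

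The catalytic subunit gene E(z) varied little between sets. It was at 23.3, 22.8, 23.7 and 22.3 RPKM in OrgR and at 16.5, 17.4, 16.5 and 16.6 RPKM in esc. The genotypes were well separated, with a mean of 23.0 ± 0.057 RPKM in OrgR and 16.8 ± 0.29 RPKM in esc (log2 change -0.44 ± 0.09, limma adjusted p = 0.0196). Under median-of-ratios scaling its log2 change was -0.26 (adjusted p = 0.0873), and without any single set the adjusted p was 0.0781 to 0.1003. E(z) lies on 3L from 10634575 to 10638130 on the minus strand and shares 1.43% of its exonic bases with CG34001 on the other strand, which did not pass the test (-0.35, adjusted p = 0.0867).

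Su(z)12, the zinc finger subunit needed for catalysis, stood closest to its wild-type level. It was at 20.9, 24.1, 22.8 and 24.5 RPKM in OrgR and at 21.5, 20.9, 19.7 and 18.6 RPKM in esc. Libraries of the genotypes overlapped, since OrgR 1-1 was below esc 1-1 and close to esc 1-2. The mean was 23.1 ± 0.80 RPKM in OrgR and 20.2 ± 1.5 RPKM in esc (log2 change -0.19 ± 0.10, adjusted p = 0.191). The 95% interval of -0.46 to 0.09 leaves room for falls as large as that of E(z). The log2 change was -0.0052 (adjusted p = 0.972) under median-of-ratios scaling and -0.021 (0.882) with centring on the median gene. It was 0.03 (adjusted p = 0.792) once a trend with gene length, described further on, was removed as well as centring. The gene is on 3L from 19918242 to 19923462, minus strand, with no exonic overlap.

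Caf1-55, the WD40 histone chaperone that PRC2 shares with several other complexes, was the most abundant subunit RNA in both genotypes. It was at 74.0, 72.0, 69.9 and 67.7 RPKM in OrgR and at 48.8, 48.2, 46.2 and 48.3 RPKM in esc. Every esc library was far below every OrgR library. Set means averaged 70.9 ± 3.0 RPKM in OrgR and 47.9 ± 0.89 RPKM in the mutants, with a log2 change of -0.56 ± 0.09 (adjusted p = 0.0101). The gene still fell under median-of-ratios scaling (-0.37, adjusted p = 0.033). Its call held in 24 of 26 other settings and ended when OrgR set 1 (adjusted p = 0.0519) or esc set 2 (0.0585) was left out. It lies on 3R from 15225576 to 15227564 on the plus strand, with no exonic overlap.

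Among the accessory subunits, Pcl, a Tudor and PHD finger protein, was at 19.2, 20.2, 21.6 and 22.8 RPKM in OrgR and at 14.6, 15.2, 14.4 and 14.7 RPKM in esc. The groups did not overlap, and the esc libraries were much closer to each other than the OrgR libraries. Its level fell from 20.9 ± 1.8 RPKM in OrgR to 14.7 ± 0.23 RPKM in the mutants (log2 change -0.48 ± 0.11, adjusted p = 0.0228). Under median-of-ratios scaling the log2 change was -0.30 (adjusted p = 0.0848), and with any single set left out the adjusted p was 0.0560 to 0.105. The gene is on chromosome arm 2R.

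The genes of the other accessory form, jing and Jarid2, varied most within OrgR. The zinc finger gene jing, also known for its role in the central nervous system midline and the trachea, was at 40.8, 46.2, 54.9 and 61.1 RPKM in OrgR and at 34.6, 34.4, 31.8 and 32.5 RPKM in esc. All esc libraries were below all OrgR libraries, but OrgR set 1 stood nearer to the mutants than OrgR set 2. Set means averaged 50.8 ± 10 RPKM in OrgR and 33.3 ± 1.7 RPKM in the mutants (log2 change -0.58 ± 0.16, adjusted p = 0.039). The call ended in 9 of 26 other settings. Among them were leaving out OrgR library 1-2 (adjusted p = 0.0710), centring on the median gene (0.0989) and median-of-ratios scaling (-0.39, adjusted p = 0.112). It also ended without esc set 1 (log2 change -0.63), esc set 2 (-0.53) or OrgR set 2 (-0.37). The gene is on chromosome arm 2R.

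Jarid2, a DNA-binding Jumonji family protein without demethylase activity, was at 9.94, 11.3, 13.0 and 14.3 RPKM in OrgR and at 9.90, 9.999, 8.62 and 9.26 RPKM in esc. OrgR 1-1 fell inside the range of the mutants, and the other OrgR libraries were above it. The mean was 12.1 ± 2.1 RPKM in OrgR and 9.44 ± 0.71 RPKM in esc (log2 change -0.32 ± 0.15, adjusted p = 0.142). The 95% interval, -0.73 to 0.09, covers both no change and a fall like that of jing. Without OrgR set 1 the log2 change was -0.49 (adjusted p = 0.0849) and without OrgR set 2 it was -0.16 (0.473). The gene lies on 3L from 9477038 to 9486530 on the plus strand and shares 0.981% of its exonic bases with pall on the other strand, which fell (-0.66, adjusted p = 0.0334). The libraries were not stranded, so reads over these bases cannot be assigned.

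**Figure D2:**
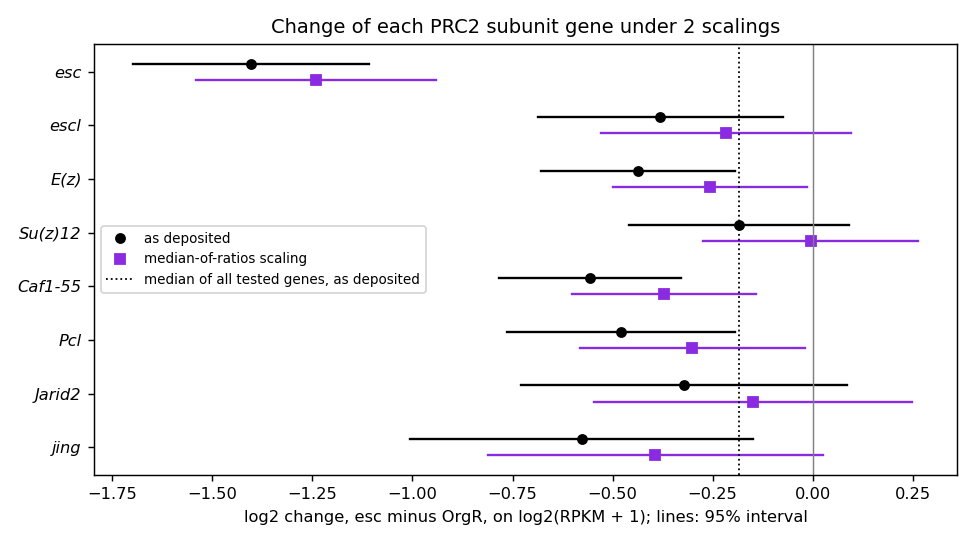
Log2 change of each subunit gene (horizontal axis, esc minus OrgR on log2(RPKM + 1)) with its 95% interval, as deposited (black circles) and after median-of-ratios scaling (purple squares). As deposited, the median of all tested genes is -0.18 (dotted line); esc stands apart at -1.40 and the other 7 genes lie between -0.58 and -0.19.

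The spread of jing and Jarid2 within OrgR went with gene length, which was examined after these values were seen. OrgR set 2 exceeded OrgR set 1 by 0.41 for jing and 0.33 for Jarid2 on the log2 scale. These are the longest of the 8 genes by annotated exons, with 9322 and 8463 bases. Pcl, with 4384 bases, came next at 0.16, then Su(z)12, with 4098 bases, at 0.07. The shorter members did not follow the order of length. E(z), with 2665 bases, was at -0.01 and Caf1-55, with 1828 bases, at -0.08. The still shorter escl (1809 bases) and esc (1704 bases) were at 0.05 and 0.03. Over all 10384 tested genes with an annotated length, the same difference had a median of 0.25 in the 446 genes over 8000 bases and of -0.13 in the 1781 genes of at most 1000 bases.

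In the mutants the trend ran the other way. The difference of esc set 2 from esc set 1 had a median of -0.22 in the longest class and 0.16 in the shortest. It was -0.10 for jing and -0.14 for Jarid2. For the shorter members it was -0.03 for Pcl and E(z), -0.14 for Su(z)12, -0.04 for Caf1-55, 0.16 for escl and 0.13 for esc. The difference between genotypes had medians of 0.06, -0.18, -0.27, -0.26 and -0.19 from the shortest to the longest class. Spearman's rho with length over these genes, which share their libraries, was 0.473 between the OrgR sets, -0.504 between the esc sets and -0.162 between genotypes. Once the trend with length was removed from each set mean, which also centres on the typical gene, jing had a smaller error and passed (log2 change -0.43 ± 0.10, adjusted p = 0.0219). With centring alone jing did not pass (-0.41, adjusted p = 0.0989). Removing the trend takes out the difference between sets that makes up the error of a long gene. The call of jing there is thus no independent check. With the trend removed, esc, Caf1-55 and jing fell, 3 of 8, beside 18.3% of all genes (44.6% in either direction). Jarid2 did not pass (-0.16 ± 0.10, adjusted p = 0.219).

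**Figure D3:**
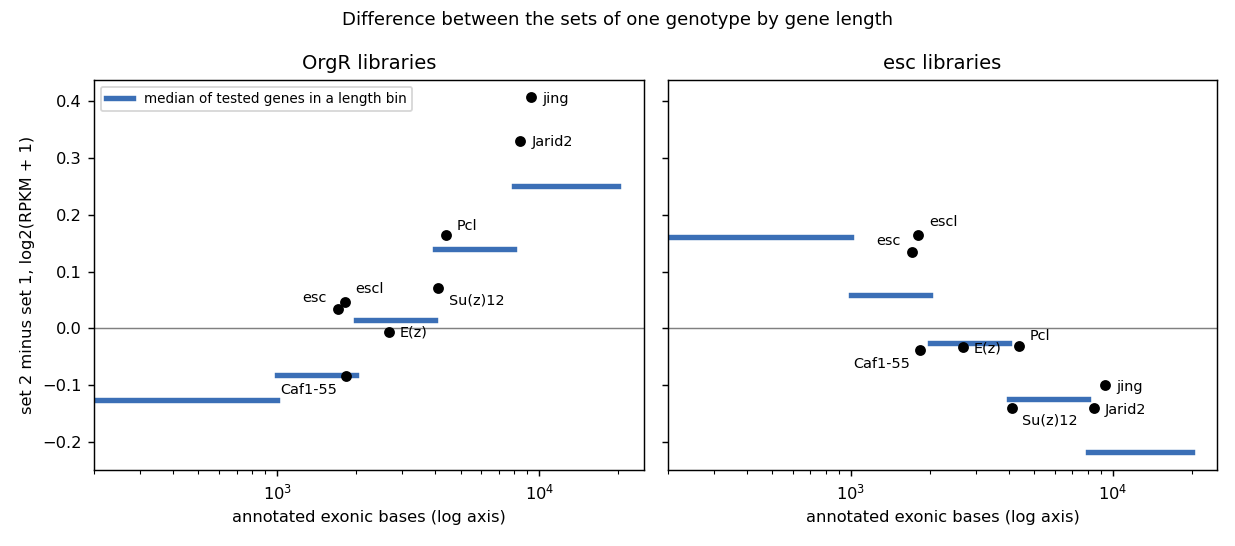
Difference between set 2 and set 1 of a genotype on log2(RPKM + 1) (vertical axis) against annotated exonic bases (log axis), for the 8 subunit genes (black points) and as the median of all tested genes in 5 length classes (blue bars; the outer bars are drawn only as far as the axis). In OrgR the medians climb from -0.13 to 0.25 and jing and Jarid2 are highest; in esc they go from 0.16 down to -0.22.

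The order of levels was nearly the same in both genotypes. From the highest it was Caf1-55, jing, Su(z)12, E(z), Pcl and Jarid2, followed in OrgR by esc and then escl, and in esc embryos by escl and then esc. In OrgR the ranges of neighbouring genes overlapped for Su(z)12 and E(z), for E(z) and Pcl, and for Jarid2 and esc. In esc embryos no neighbours overlapped, and Su(z)12 was above E(z) in 4 of 4 libraries. Levels across genes rest on the authors' gene lengths, and the trend with length between sets also limits such comparisons.

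Ratios within a library do not depend on how libraries are scaled, apart from an effect of the added 1. They were tested for each gene against esc and against E(z). All 7 other subunit genes changed less than esc, by 0.83 (jing) to 1.22 (Su(z)12) on the log2 scale, with adjusted p from 0.000232 to 0.00286. The added 1 shrinks these differences, which were 1.03 (jing) to 1.43 (Su(z)12) with 0.01 added in its place. Most genes also changed less than esc: 98.0% of tested genes differed from esc in their change (97.8% on the higher side), and this is no mark of the subunits. The spread of esc itself enters each of these ratios.

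Against E(z), 1 of 7 differed, namely esc, which changed by -0.97 ± 0.12 more than E(z) (adjusted p = 0.00433). With 0.01 added in place of 1 this difference was -1.16. In the same comparison 40.9% of all tested genes differed, 37.7% on the higher and 3.26% on the lower side. For Caf1-55 the difference from E(z) was -0.12 (95% interval -0.34 to 0.10), for Pcl -0.04 (-0.33 to 0.25), for escl 0.05 (-0.27 to 0.38), for jing -0.14 (-0.56 to 0.28) and for Jarid2 0.12 (-0.29 to 0.52). Su(z)12 had the largest difference of those that did not pass, 0.25 (-0.02 to 0.52, adjusted p = 0.117), and it stood at 0.898 to 1.098 times E(z) in OrgR and 1.117 to 1.303 times in esc. These intervals do not show that the genes changed alike; that of jing, for instance, allows a further fall of more than the whole change of E(z).

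**Figure D4:**
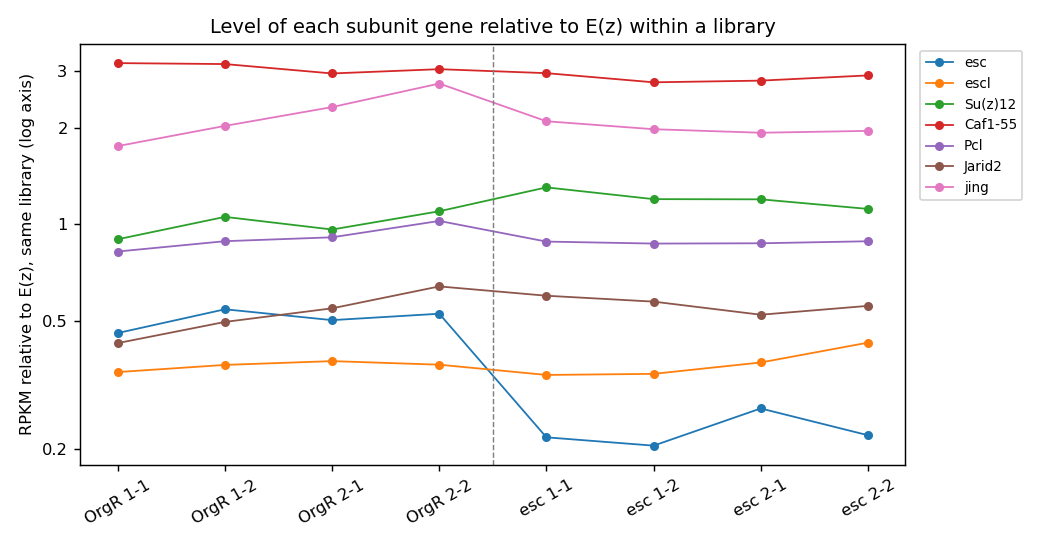
RPKM of 7 subunit genes divided by that of E(z) in the same library (log axis), for the OrgR libraries on the left and the esc libraries on the right of the dashed line. The esc line drops from 0.459 to 0.544 in OrgR to 0.204 to 0.267 in the mutants, while that of Pcl stays between 0.823 and 1.02 throughout.

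The genes with the most similar profile were found by distance between gene-centred log2(RPKM + 1) values over the 8 libraries, among 9889 other genes averaging 1 RPKM or more. Nearest to esc were fd96Ca, a forkhead factor gene (distance 0.105, 4.19 RPKM in OrgR and 0.999 in esc), CG11700 (0.147) and Tom (0.221). For escl they were CG33964 (0.0651) and CG18048 (0.0898), for E(z) bys (0.0578) and CG6766 (0.0643), and for Su(z)12 hiw (0.0792) and RhoGAP15B (0.0942). Caf1-55 was nearest to CG8578 (0.0567) and CG7655 (0.0628), Pcl to CG13900 (0.0559) and CG5728 (0.0657), Jarid2 to RASSF8 (0.0982) and sfl (0.107), and jing to bark (0.104) and pum (0.112). No subunit gene was among those listed for another. So few genes were listed for each, out of 9889, that this does not show whether subunit genes share a profile.

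Counts for other genes of the Polycomb system depended on the scaling, and stand beside 31.6% of all tested genes that fell as deposited and 13.4% under median-of-ratios scaling. In PRC1, the complex that binds the PRC2 mark, 6 of 8 fell, with a median log2 change of -0.57, and 2 of 8 fell under median-of-ratios scaling. Psc, a core subunit, fell to 8.71 ± 0.52 RPKM in the mutants, against 16.1 ± 3.1 RPKM in OrgR (-0.81 ± 0.16, adjusted p = 0.0169), and ph-d from 19.9 ± 3.1 to 11.8 ± 1.4 RPKM (-0.71 ± 0.16, adjusted p = 0.0221). Under median-of-ratios scaling Psc still fell and ph-d did not pass (adjusted p = 0.0534). Of 11 factors that bind Polycomb response elements or belong to PhoRC, 7 fell as deposited (median -0.55), furthest the Sp1-like gene Spps (13.4 to 8.51 RPKM, -0.61) and Trl, which encodes GAGA factor (246 to 164 RPKM, -0.59). Under median-of-ratios scaling 3 fell, and neither Spps (adjusted p = 0.0517) nor Trl (0.0800) was among them. Both genes of the histone H2A deubiquitinase PR-DUB fell, calypso (21.2 to 13.4 RPKM, -0.62) and Asx (15.0 to 10.2 RPKM, -0.50), and calypso alone did so under median-of-ratios scaling.

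The next counts stand beside 31.6% of all tested genes that fell as deposited and 13.4% under median-of-ratios scaling. Of 7 genes that work against PRC2, 2 fell and 5 did not pass, with a median of -0.45. Those that fell were the H3K27 demethylase gene Utx (73.9 to 46.9 RPKM, -0.64, adjusted p = 0.0168) and the H3K4 methyltransferase gene trr (16.0 to 11.3 RPKM, -0.46, adjusted p = 0.0216). None passed under median-of-ratios scaling. The genes of the replacement histone H3.3, a substrate of PRC2, both fell in either scaling. His3.3A went from 1278 ± 137 to 815 ± 22 RPKM (-0.64, adjusted p = 0.0123) and His3.3B from 1073 ± 12 to 738 ± 50 RPKM (-0.54, adjusted p = 0.0121).

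Caf1-55 has partners in other complexes, whose counts are again to be read against 31.6% of all genes as deposited and 13.4% under median-of-ratios scaling. Both other subunits of the replication-coupled chaperone CAF-1 fell, Caf1-180 (15.1 to 10.5 RPKM, -0.49) and Caf1-105 (7.11 to 5.19 RPKM, -0.39), though not under median-of-ratios scaling. In the remodeller NURF, the ATPase gene Iswi (44.4 to 26.4 RPKM, -0.74) and E(bx) (42.5 to 29.4 RPKM, -0.51) fell. E(bx) did not pass under median-of-ratios scaling (adjusted p = 0.0529). The third NURF gene, Nurf-38, named after its values were seen, did not pass (196 to 213 RPKM, 0.12, adjusted p = 0.300). Its log2 change was 0.31 (adjusted p = 0.0616) under median-of-ratios scaling and 0.29 (0.0706) with centring alone. With the length trend removed as well as centring, it stayed at 0.29 and passed (adjusted p = 0.0274). Of 6 NuRD and MEC genes 5 fell, led by the deacetylase HDAC1 (144 to 83.4 RPKM, -0.78, adjusted p = 0.00554) and simj (54.0 to 31.9 RPKM, -0.75). Of 7 dREAM and E2F genes 6 fell, led by mip130 (28.1 to 15.1 RPKM, -0.87) and the repressive E2F gene E2f2 (93.8 to 54.2 RPKM, -0.78, adjusted p = 0.00486). In each of these last 2 lists 4 fell under median-of-ratios scaling, HDAC1, simj and E2f2 among them, whereas mip130 did not pass (adjusted p = 0.0615).

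Of 12 DNA replication genes 9 fell (median log2 change -0.61), beside 31.6% of all genes, and 6 did so under median-of-ratios scaling, beside 13.4%. The helicase subunit gene Mcm7 went from 63.8 ± 1.4 to 33.6 ± 0.69 RPKM (-0.91, adjusted p = 0.00371) and geminin, which restrains licensing, from 150.0 ± 4.3 to 84.4 ± 5.9 RPKM (-0.82, adjusted p = 0.00533). Of 6 genes that act with jing in trachea, midline or migrating cells, 3 fell: the FGF receptor gene btl (8.39 to 5.001 RPKM, -0.63), the bHLH-PAS partner gene tgo (90.5 to 59.2 RPKM, -0.61) and the midline regulator sim (4.94 to 2.98 RPKM, -0.58). Under median-of-ratios scaling sim still fell (adjusted p = 0.0388), and btl (0.1002) and tgo (0.0811) did not pass. The C/EBP gene slbo rose from 24.7 ± 8.6 to 195 ± 18 RPKM (2.97 ± 0.25, adjusted p = 0.00307) and did so in both scalings, and 2 genes did not pass.

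**Figure D5:**
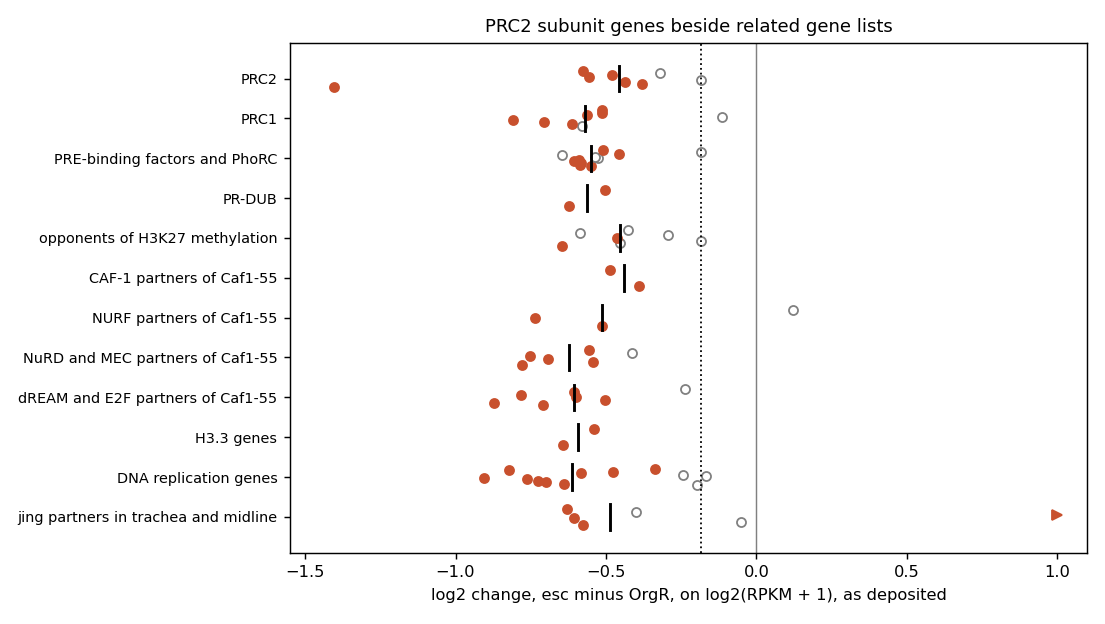
Log2 change (horizontal axis, esc minus OrgR on log2(RPKM + 1), as deposited) of each gene in the PRC2 list and in 11 related lists, filled where it passed the test and open where it did not, with a black bar at the median of each list. The list medians lie between -0.62 and -0.44, left of the dotted line at -0.18, the median of all tested genes; the arrow marks slbo, beyond the axis at 2.97.

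The libraries also differed in markers of tissue and maturity. Counts of markers stand beside 20.9% of all tested genes that rose and 31.6% that fell. No marker of neurons, glia, muscle, epidermis, trachea, blood, gut or germ cells was at the floor of the table in any library, and the lowest value was 0.046 RPKM, for the blood cell gene Hml. The summed RPKM of 3 muscle genes was 995 to 1514 in OrgR and 4427 to 5558 in esc, and all 3 rose. The 3 glial genes summed to 97.6 to 111 and 69.8 to 83.9 (2 fell), and the 3 neuronal genes to 62.7 to 96.2 and 55.0 to 86.5 (none passed). Epidermal genes summed to 47.7 to 68.9 and 68.5 to 88.9, but the 3 moved in different ways. The enzyme genes of cuticle tanning rose, Ddc 29.6-fold (0.444 ± 0.051 to 13.1 ± 9.6 RPKM) and ple 6.48-fold (4.73 ± 1.9 to 30.7 ± 6.4 RPKM), and grh, the largest part of the sum in OrgR, did not pass (52.4 to 35.4 RPKM). The 3 fat body and blood genes summed to 82.0 to 101 and 59.0 to 64.2 (1 fell). Trachea, with 2 genes, summed to 44.9 to 54.6 and 41.9 to 46.4 (1 fell), gut, with 2, to 136 to 152 and 124 to 143 (none passed), and germ cells, with 3, to 30.1 to 43.1 and 22.0 to 26.0 (1 fell and 1 rose). As a share of summed RPKM, 118 cuticle protein genes held 0.0257% to 0.0272% in the OrgR libraries, 1.03% to 1.04% in the first mutant set and 2.17% to 2.24% in the second. The part of these differences in the changes of the subunit genes was not tested. Relative depth, read from steps among low values, was 84.5% to 100% of that of the deepest library.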

How the data were processed

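The authors deposited one table of linear RPKM values without a filter, with a column per library, per the labels. Reads were placed on dm6 according to the submitters' processing notes, and the paired 150 bp reads came from unstranded libraries, per the labels' protocols. The aligner, counting program and gene models are not given in the sources used here. Without strand, reads of overlapping genes on opposite strands cannot be told apart. Read numbers behind the values are unknown, and only relative depth was recovered.

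Testing covered genes whose 8 libraries averaged 0.5 RPKM or more. It was done with limma 3.58.1 in R 4.3.3 on log2(RPKM + 1) of set means, which understates the change of low genes. The fit used lmFit and eBayes with a variance trend, and was two-sided, with Benjamini-Hochberg adjustment over all tested genes and a threshold of 0.05. It had 2 residual degrees of freedom, and 4.55 after moderation. Ratios to esc and to E(z) were fitted in the same way. The fit was tested on simulated data whose set effects were drawn separately for each gene, so that test does not cover a trend with gene length. Positions and exonic lengths came from Ensembl release 115, and 98.5% of tested genes had a length.

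The members and lists were chosen with earlier results of these data known. Named genes were the 8 members, the called members of each list (where more than 4 were called, the 2 largest falls and the 2 largest rises), and the genes nearest in profile, 3 for esc and 2 for each other member. Alternatives covered the pseudocount, filter, scaling, unit of replication, block, moderation, gene length, and leaving out libraries and sets.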

Additional observations from a re-analysis of the deposited data

Results flagged for a closer look

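In 16 groups of 4 libraries (8 genes in each genotype), 2 held a library far from the rest by Dixon's criterion, which chance meets in about 1 of 20 groups. The level of esc in esc library 2-1 was 4.40 RPKM, above the other mutant libraries. The level of E(z) in esc library 1-2 was 17.4 RPKM, above the other mutant libraries. Libraries of a set may not be independent. Without esc 2-1 the log2 change of esc was -1.46, and without esc 1-2 that of E(z) was -0.45, and both genes still fell.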

How the results depend on the processing

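The count of changed genes was 5537, against 3588 without a filter. The count of subunit genes that fell was 6, against 3 without a filter or with the length trend removed (added after seeing the data), and 2 under median-of-ratios scaling or centring. With a library or set left out the counts ran from 2071 to 5730 and from 1 to 6; a lone set is assumed to vary like those of the other genotype. With 8 libraries as independent samples, 3 genes differed from E(z) in place of 1; leaving out libraries or sets kept that count at 1 and the count against esc at 7.

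With the set number as a replicate block, 2467 genes changed and 2 subunit genes fell, esc and Caf1-55, beside 8.52% of all genes. The labels do not say that the numbers pair the samples. Set differences of OrgR and esc had a correlation of -0.34 over genes, and their trends with gene length also ran in opposite directions. The cause of that correlation was not tested. A crossed block, added after seeing the data, gave 6717 changed genes and 6 subunit genes. It was chosen from that correlation, so these counts are no independent check.

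The fall of esc passed in 26 of 26 other settings, that of Caf1-55 in 24, E(z) in 18, Pcl and jing in 17 and escl in 11. Su(z)12 was at -0.021 with centring alone and turned to 0.030 with the length trend removed as well. Both Su(z)12 and Jarid2 passed only with 8 libraries as independent samples. Relative to E(z), leaving out a library or set gave -0.044 (without esc set 2) to 0.153 for escl, -0.128 to 0.042 (without OrgR set 2) for Pcl, -0.053 (without OrgR set 1) to 0.283 for Jarid2 and -0.348 to 0.065 (without OrgR set 2) for jing. These turned sign against the values with all libraries, and none passed. The cause of these shifts was not tested.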
